A study of Homo sapiens with 6 samples.

Results

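Collagens, laminins, the nidogens, perlecan and fibronectin are the proteins from which cells build the extracellular matrix they stand on, and their transcripts were followed here in 2 human ovarian cancer cell lines in which Hic-5 had been modified. The genes were taken by name: every collagen chain (COL followed by a type number, A and a chain number), every laminin chain (LAMA, LAMB or LAMC), and NID1, NID2, HSPG2 and FN1. This rule used no measured value, but the members were chosen with earlier results of these data known. Of the 29123 gene names on the array 59 are reported, namely 43 collagen genes, 12 laminin genes with the pseudogene LAMB2P1 among them, and 4 linkers with fibronectin. They carried 99 probes, and 26 of the genes had more than 1.

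Total RNA was compared on 6 Agilent Whole Human Genome arrays, each of which reads 2 RNAs in the dyes Cy3 and Cy5. SKOV3 is an ovarian adenocarcinoma line. It was represented by 3 RNAs, from a mock-transfected control clone (Ctrl) and from the stable clones sh-S1 and sh-S2, each made with a lentiviral shRNA against Hic-5. A2780s is another ovarian adenocarcinoma line and was represented by 1 control clone and 1 clone that expresses Hic-5 from the vector pCMV (pCMV-Hic-5). Every modified clone was set against the Ctrl of its own line on 2 arrays with the dyes exchanged, and all RNAs came from adherent cultures for which the labels name no other agent. Each group is thus a single clone, and the SKOV3 clones share 1 Ctrl RNA. The study asked in this comparison which genes move when Hic-5 is reduced or raised.

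The matrix proteins fall into classes by what they assemble. Fibrillar collagens form the banded fibres of connective tissue, type IV collagen and the laminins form the separate networks of the basement membrane under an epithelium, and the nidogens and perlecan tie those networks together. Fibronectin is laid down as fibrils that cells hold through integrins. Laminins are heterotrimers of an α, a β and a γ chain, and the collagen triple helix needs a glycine at the head of each Gly-X-Y triplet. Carcinoma cells make part of their own basement membrane, and a shift from basement membrane collagens to fibrillar collagens and fibronectin is a known trait of cells that take on mesenchymal features.

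Hic-5 itself (TGFB1I1) was read first. Its log2 ratios over Ctrl were -0.16 and 0.12 for the RNA labelled sh-S1 and -0.12 and 0.28 for the RNA labelled sh-S2, with the modified clone in Cy5 first and in Cy3 second. Neither labelled RNA stood below Ctrl on both arrays (mean 0.03, SE 0.09, limma adjusted p = 0.855), so the probe read did not set the labelled RNAs apart from Ctrl. The SKOV3 clones are therefore named below by their labels only, and every direction is that of the RNA labelled sh-S1 or sh-S2 over Ctrl. In A2780s, TGFB1I1 was higher in pCMV-Hic-5 on both arrays, at 4.05 and 2.60. Its mean log2 level was 8.22 in SKOV3 Ctrl, 8.45 in sh-S1 and 8.05 in sh-S2. In A2780s, on another slide, it was 12.9 in Ctrl and 16.2 in pCMV-Hic-5. The paper reports otherwise from other assays. It selected its knockdown clones by reduced Hic-5 mRNA and protein. Its blots had strong Hic-5 protein in SKOV3 and rather low Hic-5 protein in A2780s. The reason for the difference from this array probe was not tested. In Ctrl of SKOV3, 6 of 9 genes listed for ovarian carcinoma lines were well above background on every array, while CDH1, which encodes E-cadherin, was so on 2 of 4. Both labelled SKOV3 RNAs had far less PAX8 (12.0-fold) and KRT18 (11.5-fold) and more of the smooth muscle genes CNN1 (10.5-fold) and ACTA2 (5.78-fold) than Ctrl. Of the 856 genes called lower in these RNAs, 99.8% had a lower log2 level in A2780s Ctrl than in SKOV3 Ctrl, against 53.2% of all 18812 genes tested, and of the 646 called higher 95.8% had a higher one, against 46.8%. Genes called against SKOV3 Ctrl are in part selected for its level, and the bearing of these shares on the labels was not tested. The Cy5 channel was dim on all SKOV3 arrays, with a median net intensity of 9.52 to 25.4 against 373 to 530 in Cy3.

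The stretch of DNA that starts both type IV collagen genes is shown first, because COL4A1 and COL4A2 lie head to head and both moved in SKOV3. It runs from the base before the COL4A1 start to the base before the COL4A2 start, 126 bases at chr13:110307158-110307283 (GRCh38.p14, plus strand, RefSeq). Capitals mark its single CCAAT, the letters of a common promoter box, searched on both strands.
COL4A1 and COL4A2: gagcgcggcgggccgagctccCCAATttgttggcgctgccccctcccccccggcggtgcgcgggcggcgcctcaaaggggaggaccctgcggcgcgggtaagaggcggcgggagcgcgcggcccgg
The same search found CCAAT in 21.1% of the 35116 RefSeq promoters in the table when only the last 126 bases before each start were read. FN1 is shown because it was among the genes with the largest drop, over the 250 bases before its start (chr2:215436069-215436318, minus strand). Capitals mark TGACGTCA, the letters of a cyclic AMP response element, and CCAAT, which share no base here.
FN1: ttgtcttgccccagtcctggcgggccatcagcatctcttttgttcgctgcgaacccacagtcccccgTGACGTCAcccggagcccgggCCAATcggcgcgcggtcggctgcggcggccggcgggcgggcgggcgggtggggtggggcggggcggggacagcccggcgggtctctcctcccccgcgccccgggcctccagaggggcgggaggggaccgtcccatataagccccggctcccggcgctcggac
TGACGTCA stood in 1.65% of all such 250-base windows and, among the 44 members with a window, in FN1 alone. CCAAT stood in 32.0% of all 250-base windows and in 15 of the 44 members. The α and β chains of the epithelial laminin follow, with TGANTCA in capitals, the letters bound by AP-1 factors, at chr18:23872770-23873019 (plus strand) for LAMA3 and chr1:209651375-209651624 (minus strand) for LAMB3, which has 3 windows and the match in only 1.
LAMA3: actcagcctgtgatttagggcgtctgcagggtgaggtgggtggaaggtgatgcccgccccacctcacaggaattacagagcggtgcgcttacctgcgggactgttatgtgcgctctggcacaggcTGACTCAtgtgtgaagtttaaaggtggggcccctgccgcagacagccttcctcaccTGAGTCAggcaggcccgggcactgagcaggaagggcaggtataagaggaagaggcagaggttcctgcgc
LAMB3: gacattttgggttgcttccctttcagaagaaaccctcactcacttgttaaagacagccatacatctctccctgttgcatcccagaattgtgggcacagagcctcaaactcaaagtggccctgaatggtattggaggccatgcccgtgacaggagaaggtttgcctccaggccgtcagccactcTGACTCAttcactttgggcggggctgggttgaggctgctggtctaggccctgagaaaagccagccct
TGANTCA was found on either strand of 6.57% of all 250-base windows and in 3 of the 44 members with a window, COL10A1, LAMA3 and LAMB3. A match is a run of letters and no evidence that a factor binds there. No window was given for COL14A1, COL1A1, COL1A2, COL20A1, COL22A1, COL2A1, COL3A1, COL5A2, COL6A1, COL6A5, COL8A1, COL9A3, LAMA1, LAMB2P1 and LAMC3.

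In SKOV3, 11 members were lower in both labelled RNAs than in Ctrl, among them COL4A1, COL4A2, COL18A1, LAMA3, LAMB1, LAMB3 and FN1, and 3 were higher, COL3A1, COL5A2 and LAMA1. Neither the laminins nor the fibrillar collagens moved one way, since LAMA1 was higher and the fibrillar chain COL5A1 lower. A gene was read by its brightest probe and called when the change reached 2-fold and the limma test of the clone means against 0 passed an adjusted p (Benjamini-Hochberg) of 0.05. Of the 59 members, 42 passed the filter on dim probes, 11 were called lower (26.2%) and 3 higher (7.14%). Among all 18812 genes tested, 4.55% were called lower and 3.43% higher. With Feature Extraction's own processed signals, 16 members were called lower and 10 higher, beside 9.10% and 8.19% of all genes. The other 28 tested members ranged from -0.97 to 0.99 on the log2 scale, and 10 of them passed the adjusted p but not the fold. By the adjusted p alone, 16 members were lower and 8 higher, where 16.5% of all genes tested were lower and 16.5% higher. The median log2 ratio was 0.03 over the tested members and 0.01 over all genes. All 14 called members had 1 sign on all 4 arrays, and the highest adjusted p among them was 0.000167. The SE of a mean ratio (limma, n = 2 clones) does not include the spread of Ctrl, a single RNA. The SE and the p-values rest on the spread between these clones, drawn by eBayes toward that of all tested probes (5.57 prior degrees of freedom). The spread between the dye-swapped arrays of a clone was averaged out before the fit and is not in them.

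**Figure D1:**
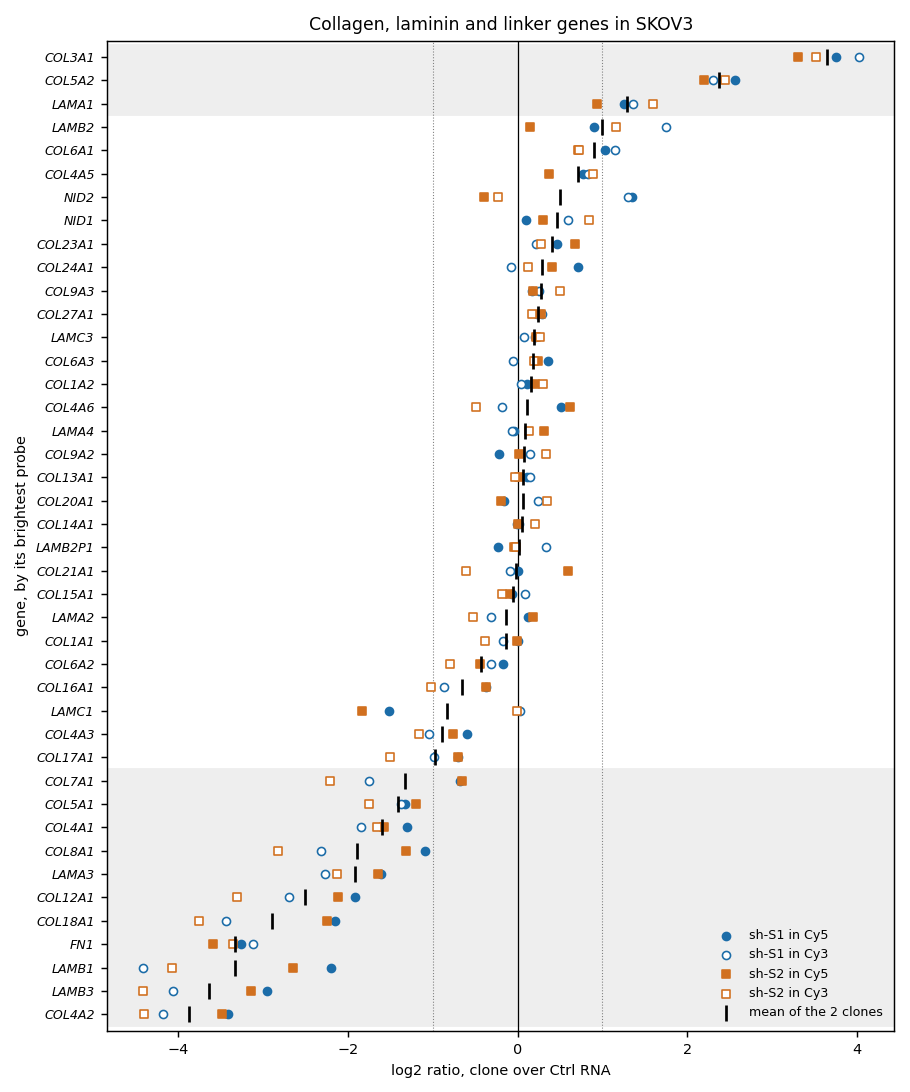
Log2 ratio of each labelled clone over Ctrl (x axis) for the 42 tested members (y axis, brightest probe), 1 point per array and a bar at the mean of the 2 clones. Grey bands mark the 14 called members, dotted lines the 2-fold limits. COL4A2 at the foot and COL3A1 at the head lie beyond 3 on every array, and NID2 has sh-S1 and sh-S2 on opposite sides of 0.

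Type IV collagen, the network of the basement membrane, was lower through its most widespread chains. COL4A2 had log2 ratios of -3.41 (Cy5) and -4.18 (Cy3) for sh-S1 and -3.48 and -4.40 for sh-S2. The drop was seen on every array, and its level fell from 14.7 to 15.3 in the 4 Ctrl channels to between 10.9 and 11.3 in the 4 clone channels on the log2 scale. The mean was -3.87 (SE 0.10), 14.6-fold lower with an adjusted p of 2.58e-06, rank 30 from the lowest of the 18812 genes. COL4A1, the chain that pairs with it in the same trimer, had -1.30 and -1.85 for sh-S1 and -1.57 and -1.66 for sh-S2. All 4 arrays lay below 0, and the mean of -1.60 (SE 0.09) was a 3.02-fold drop with an adjusted p of 5.09e-05. The neighbours on the shared start were thus both lower, by unequal amounts at the probes used, which lie at chr13:111165261-111165320 for COL4A2 and chr13:110802347-110802406 for COL4A1 (hg19).

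The tissue-restricted type IV chains did not follow COL4A2 as a group. COL4A5, read 1.64-fold higher, had ratios of 0.77 and 0.83 for sh-S1 and 0.37 and 0.89 for sh-S2 (adjusted p = 0.00202), short of the fold. COL4A3 had a mean of -0.89 and an adjusted p of 0.000741, also short of it, and was well above background in each labelled RNA on 1 of 2 arrays. Both were called with processed signals (1.51 and -3.29) and with a normexp offset of 10 (1.15 and -1.67), and COL4A3 also with median centring (-1.59) and on Cy3 arrays (-1.10). For COL4A6 the mean was 0.11 (SE 0.09, adjusted p = 0.435), and COL4A4 was too dim to test. Of the 6 type IV genes, 2 were called lower, 3 were tested and not called, and 1 was not tested. Among all genes tested, 4.55% were called lower and 3.43% higher, and the type IV genes are too few to set against these shares.

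COL18A1, which encodes the basement membrane collagen that holds endostatin, had ratios of -2.15 and -3.44 for sh-S1 and -2.25 and -3.76 for sh-S2. The Ctrl level of 15.3 was the highest log2 level this probe reached in any RNA, and all clone channels lay below it. Its mean was -2.90 (SE 0.10), 7.46-fold lower, with an adjusted p of 6.85e-06. COL7A1 forms the anchoring fibrils that fix a basement membrane to the tissue below, and it had -0.67 and -1.75 for sh-S1 and -0.66 and -2.21 for sh-S2. It was lower on every array but by less than 2-fold on both arrays with the clone in Cy5, and well above background in sh-S1 on 1 of 2 arrays. The mean of -1.32 (SE 0.10) was a 2.50-fold drop with an adjusted p of 0.000167.

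LAMA3 and LAMB3, the α and β chains of the laminin of epithelial anchoring sites, were both called lower. LAMB3, the β chain, had -2.95 and -4.06 for sh-S1 and -3.14 and -4.41 for sh-S2. For the α chain LAMA3 the values were -1.60 and -2.27 for sh-S1 and -1.65 and -2.13 for sh-S2. No array put either chain at or above Ctrl, and within each dye the clones lay close together. Over 25161 probes the clones correlated at a Pearson r of 0.89 in Cy5 and 0.90 in Cy3. The dye-swapped arrays of 1 clone correlated less, at 0.61 for each clone. The folds were 12.5 for LAMB3 (adjusted p = 4.02e-06) and 3.77 for LAMA3 (2.38e-05). LAMB3 was well above background in both labelled RNAs on all arrays, LAMA3 in sh-S1 on 1 of 2. The probes lie at chr1:209788278-209788337 for LAMB3 and chr18:21534735-21534794 for LAMA3 (hg19).

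Laminins with the widely expressed β1 and γ1 chains gave an uneven picture. LAMB1, the β1 chain, had -2.20 and -4.42 for sh-S1 and -2.65 and -4.07 for sh-S2, far below Ctrl on each array. Its mean of -3.33 (SE 0.09) was a 10.1-fold drop with an adjusted p of 3.45e-06. LAMC1, the γ1 chain found in most laminins, had -1.52 and 0.03 for sh-S1 and -1.83 and -0.01 for sh-S2. Both arrays with the clone in Cy5 showed a drop and neither array with the clone in Cy3 did, so the mean of -0.83 (adjusted p = 0.00109) averages values that depend on the dye. LAMC1 was not called, but it was called lower with processed signals (-1.06), with median centring (-1.05) and on Cy5 arrays alone (-1.67), and Cy3 arrays alone gave 0.01.

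LAMA1, the α chain of the laminin of early embryos, was the laminin called higher. Its ratios were 1.25 and 1.36 for sh-S1 and 0.93 and 1.60 for sh-S2, all above 0, and the mean of 1.29 (SE 0.09) was a 2.44-fold rise with an adjusted p of 0.000126. The size rested on the processing, at 4.65 with processed signals, 2.45 with offset 10 and 2.20 with median centring, and the call was lost when probes were averaged (0.42). In Ctrl the probe was well above background on 2 of 4 arrays. Another tested LAMA1 probe gave 0.03 and one farther upstream gave -0.05, with adjusted p of 0.882 and 0.753, so among the tested probes the rise was seen at the one nearest the 3′ end. LAMB2, the β2 chain of vessel and muscle laminins, just missed the fold at 0.99 (1.99-fold, adjusted p = 0.00399), with 0.91 and 1.76 for sh-S1 and 0.15 and 1.16 for sh-S2. It was called higher with processed signals (1.13), with offset 10 (1.06) and on Cy3 arrays (1.46). The remaining tested laminins, LAMA2, LAMA4, LAMC3 and the pseudogene LAMB2P1, had means between -0.13 and 0.19. LAMA5 and LAMB4 were too dim to test. LAMB2P1 is a copy of LAMB2, and reads of such copies on 1 array cannot always be told apart.

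FN1, fibronectin, was lower in both labelled RNAs. The ratios of its brightest probe were -3.26 and -3.12 for sh-S1 and -3.58 and -3.36 for sh-S2. Of the 11 lower members FN1 had the narrowest range over the 4 arrays, and its clone channels spanned 9.56 to 10.3 on the log2 scale against 12.9 to 13.7 in Ctrl. The mean was -3.33 (SE 0.11), 10.1-fold lower, with an adjusted p of 5.37e-06. Among the linkers, NID1 had 0.10 and 0.59 for sh-S1 and 0.31 and 0.85 for sh-S2, a mean of 0.46 with an adjusted p of 0.0150 that did not reach the fold, though with processed signals it did (1.51, adjusted p = 0.00921). HSPG2, perlecan, was well above background in Ctrl on 2 of 4 arrays and was not tested, and its 4 ratios ran from -0.14 to 0.16.

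NID2, the second nidogen, split the clones. It had 1.34 and 1.30 for sh-S1 but -0.40 and -0.22 for sh-S2, with both arrays of a clone close to each other. Its mean level was 11.2 in Ctrl, 12.5 in sh-S1 and 10.8 in sh-S2 on the log2 scale. The mean of 0.51 (SE 0.33, adjusted p = 0.316) describes neither clone. The clone difference, sh-S2 minus sh-S1, was -1.63, while for 40 of the 42 tested members it was under 0.5 in size. Each clone is 1 replicate, so this difference was not tested.

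Fibrillar collagens, the fibre formers, moved in opposite directions. COL3A1 encodes the chain of type III collagen, found in elastic tissues and repair, and had 3.75 and 4.02 for sh-S1 and 3.30 and 3.52 for sh-S2. No clone channel overlapped Ctrl, with levels of 12.3 to 13.7 against 9.04 to 9.72 on the log2 scale. The mean of 3.65 (SE 0.13) was 12.5-fold higher with an adjusted p of 7.50e-06, rank 14 from the highest of 18812 genes. COL5A2, the α2 chain of the type V collagen that seeds fibrils, had 2.56 and 2.30 for sh-S1 and 2.20 and 2.45 for sh-S2. It was 5.20-fold higher (mean 2.38, SE 0.09, adjusted p = 1.07e-05), and its neighbour on chromosome 2 is COL3A1. A brighter COL5A2 probe was flagged on 1 sh-S1 array and was set aside for that reason after its values were seen. On its other 3 arrays it gave 2.93, 3.54 and 2.27. The probe used gave 4.12 with processed signals and 3.21 with offset 10.

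COL5A1, the α1 chain of the same type V collagen, went the other way. Its ratios were -1.33 and -1.37 for sh-S1 and -1.20 and -1.75 for sh-S2, a mean of -1.41 (SE 0.10), 2.66-fold lower with an adjusted p of 9.79e-05. The brightest probes of these partners were called in opposite directions, but the dimmer COL5A1 probe gave -0.32 and the COL5A1 call was lost when both were averaged (-0.87). COL1A1 and COL1A2, the chains of type I collagen, had means of -0.14 (adjusted p = 0.340) and 0.16 (0.283), with levels near 7.7 on the log2 scale in Ctrl. COL24A1 and COL27A1 were tested with means of 0.29 and 0.24 and not called, COL24A1 passing with processed signals alone (1.01). COL2A1, COL5A3, COL11A1 and COL11A2 were too dim to test.

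The collagens that coat or link fibrils included 1 called gene of 7 tested. Of all genes tested, 4.55% were called lower and 3.43% higher, and 7 genes are too few to set against these shares. COL12A1, which lies on the surface of type I fibrils, had -1.92 and -2.69 for sh-S1 and -2.11 and -3.30 for sh-S2. The mean of -2.51 (SE 0.12) was a 5.68-fold drop with an adjusted p of 2.37e-05. COL16A1 had a mean of -0.66 with an adjusted p of 0.00238, short of the fold, which it passed with processed signals (-2.16) and offset 10 (-1.19). The other 5 lay between -0.02 and 0.28, and of them COL9A3 passed with processed signals (1.39). COL8A1, a network collagen of vessel walls and of Descemet's membrane, had -1.09 and -2.31 for sh-S1 and -1.32 and -2.83 for sh-S2, 3.70-fold lower with an adjusted p of 6.83e-05.

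No type VI or transmembrane collagen was called in SKOV3 at the settings used, and 4 were called under others. Most genes were not called either, 17310 of the 18812 tested. COL6A1, a chain of the beaded filaments that surround many cells, was 1.87-fold higher (mean 0.91, SE 0.12, adjusted p = 0.00158), while its neighbour COL6A2 had a mean of -0.43 (adjusted p = 0.0320) and COL6A3 one of 0.19 (0.189). COL17A1, the transmembrane collagen of hemidesmosomes, fell just outside the 2-fold limit, with -0.70 and -0.98 for sh-S1 and -0.70 and -1.50 for sh-S2 and a mean of -0.97 (adjusted p = 0.000749). It was well above background in each labelled RNA on 1 of 2 arrays. COL17A1 was called lower with processed signals (-2.12), offset 10 (-1.62), median centring (-1.27) and on Cy3 arrays (-1.24). Its dimmer tested probe gave -0.22 (adjusted p = 0.132). COL6A1 passed with processed signals (1.28) and offset 10 (1.05), and COL6A2 (-1.41) and COL23A1 (1.19) with processed signals alone. COL23A1 had a mean of 0.41 (adjusted p = 0.0188) and COL13A1 one of 0.06 (0.700).

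**Figure D2:**
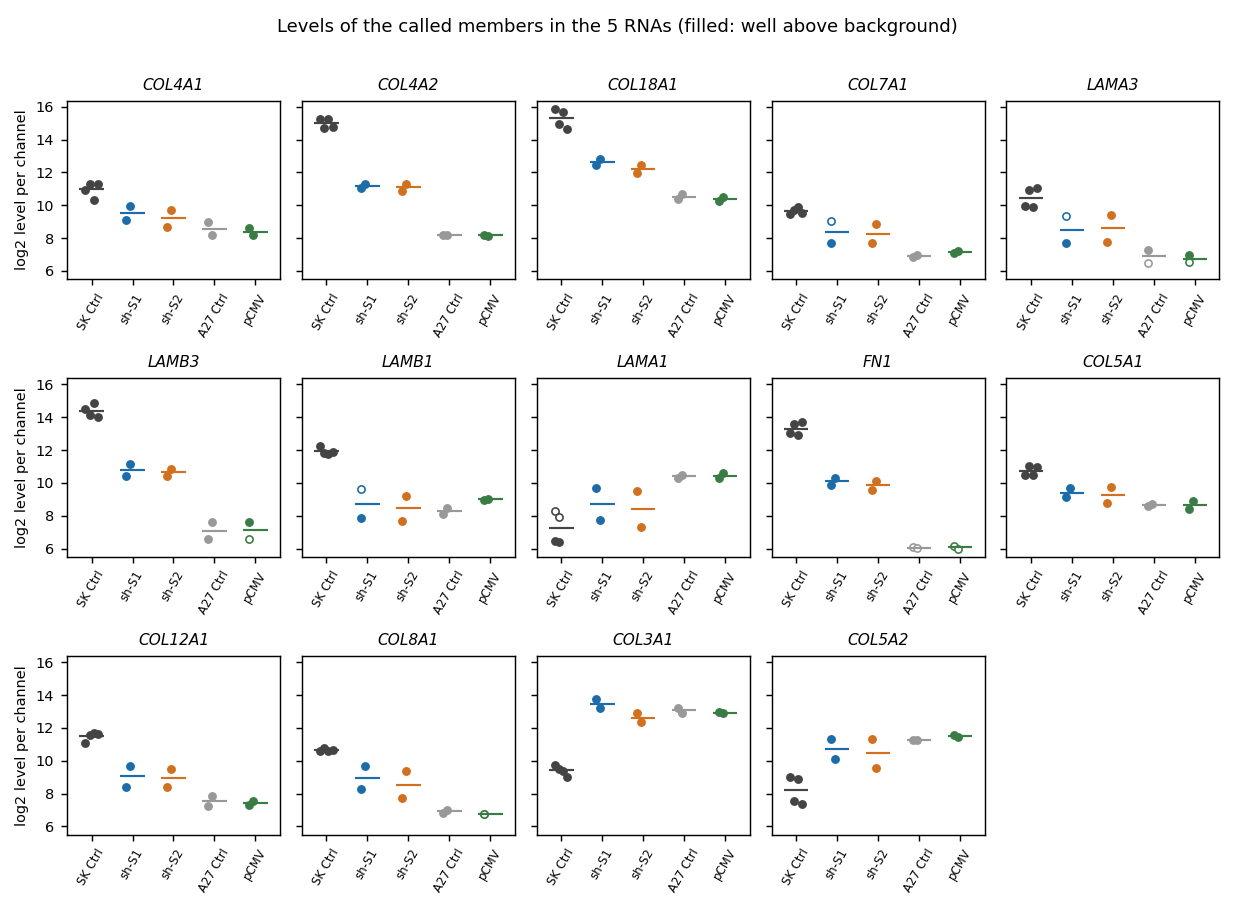
Log2 level per channel (y axis, loess and Aquantile normalized) of the 14 members called in SKOV3, by their brightest probe, in the 5 RNAs (x axis: SKOV3 Ctrl, sh-S1, sh-S2, A2780s Ctrl, pCMV-Hic-5). Points are channels, filled where well above background, and lines are means. COL4A2 drops from at least 14.7 in SKOV3 Ctrl to at most 11.3 in the labelled clones, and FN1 is open, at 6.06 and 6.08, in both A2780s RNAs.

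The size of a drop depended on the dye that carried the clone. In 10 of the 11 lower members both clones gave a lower ratio in Cy3 than in Cy5, and FN1 was the exception. Across these 11 genes the ratio on a single array ran from -0.66 to -4.42. Cy5 was the dimmer channel on these arrays, as given above, and its part in the sizes was not tested. The linear fold of the drop was over 1.5 times larger for some members with processed signals or offset 10 (log2 ratios in brackets). With processed signals this held for COL12A1 (-3.54), COL4A1 (-2.25), COL7A1 (-2.31), COL8A1 (-2.64), LAMA3 (-3.22) and LAMB1 (-4.73). With offset 10 it held for LAMA3 (-2.58) and LAMB1 (-4.04). In both labelled RNAs 8 of the 11 genes were well above background on all arrays, while COL7A1, LAMA3 and LAMB1 were so in sh-S1 on 1 of 2.

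Different probes of a gene differed in size but not in the direction of a call. For 19 of the 26 members with more than 1 probe, the brightest was the one nearest the 3′ end by hg19 position. Of the 10 called members with further probes, 7 had another tested probe, and in these 7 it moved less than the chosen one. COL4A1, LAMA3 and COL5A2 had none. The COL5A2 probe set aside moved less than the one used on the sh-S2 Cy3 array (2.27 against 2.45) and more on its other SKOV3 arrays. The FN1 probes are printed because they gave unlike values for 1 gene, -3.33 at chr2:216226332-216226733 (A_24_P119745) and -0.71 with an adjusted p of 0.00200 at chr2:216235126-216236661 (A_24_P85539), both on the minus strand of hg19. Each crosses an intron and has an open reading frame.
FN1 A_24_P119745: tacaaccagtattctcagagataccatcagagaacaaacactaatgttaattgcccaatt
FN1 A_24_P85539: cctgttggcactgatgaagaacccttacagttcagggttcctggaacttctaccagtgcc
The mean log2 level of the probes over the 6 arrays was 9.79 and 7.76, so the smaller change was read by the dimmer probe. The remaining FN1 probe was too dim to test.

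COL3A1 probes are shown for the triple helix, whose glycine codons (GGN, 1 in each Gly-X-Y triplet, in capitals) run through 1 of them and through a COL4A1 probe. The brightest one, A_23_P142533 at chr2:189875071-189875412, gave 3.65, and the helix probe, A_24_P402242 at chr2:189869076-189870120, gave 1.12 with an adjusted p of 0.000428 (hg19, plus strand).
COL3A1 A_23_P142533: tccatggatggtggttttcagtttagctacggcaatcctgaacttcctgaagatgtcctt
COL3A1 A_24_P402242: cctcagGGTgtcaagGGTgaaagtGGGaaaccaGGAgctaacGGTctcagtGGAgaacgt
COL4A1 A_24_P68342: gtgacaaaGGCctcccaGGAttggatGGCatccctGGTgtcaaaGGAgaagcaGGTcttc
The last COL3A1 probe, nearest the 3′ end, gave 2.34 (adjusted p = 2.74e-05), so all 3 were called higher, where 2.98% of all 24958 probes tested were. The 3 probes read 1 gene that was already called, so they are not independent of each other. The COL4A1 helix probe at chr13:110826340-110826846 (minus strand) was too dim to test in SKOV3. Of the 99 member probes, 3 held such an unbroken glycine pattern. For COL18A1 the dimmer probe gave -0.40 against -2.90, for COL12A1 -1.04 against -2.51, for COL5A1 -0.32 against -1.41, and for COL8A1 -0.48 and -1.43 against -1.89. Averaged over tested probes, COL3A1 gave 2.37, FN1 -2.02, COL18A1 -1.65, COL12A1 -1.77 and COL8A1 -1.27, all still called.

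**Figure D3:**
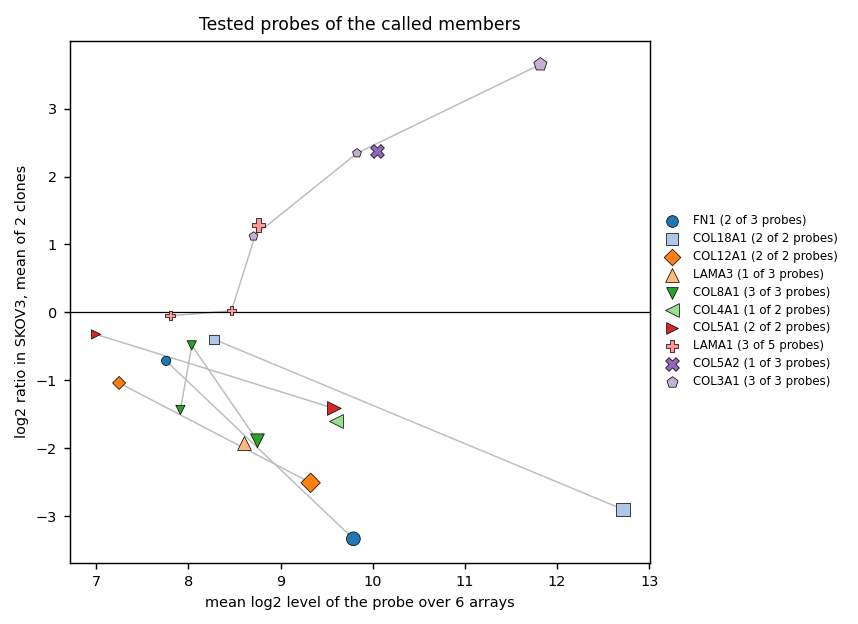
Mean log2 ratio in SKOV3 (y axis, 2 clones) against the mean log2 level of the probe over 6 arrays (x axis) for every tested probe of the 10 called members with more than 1 probe. Large symbols are the probes used for the calls, and lines join probes of a gene. In the 7 genes with over 1 tested probe the probe used lies farthest from 0, as for FN1 at -3.33 against -0.71.

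Genes of 3 related lists were read beside the members. Of the genes that modify, fold and cross-link collagen, 30 of 33 were tested, and 3 were called higher and 3 lower (10.0% each way). Of all genes tested in SKOV3, 3.43% were called higher and 4.55% lower. Lower were P3H2 (7.99-fold), a prolyl 3-hydroxylase active on type IV collagen, LOXL1 (-2.49, 5.63-fold), a cross-linking lysyl oxidase, and PLOD2 (-1.38, 2.61-fold), a lysyl hydroxylase. Higher were PCOLCE (2.13, 4.36-fold), which enhances cleavage of fibrillar procollagen, FKBP10 (2.12, 4.35-fold), a chaperone of the same collagens, and PPIB (1.21, 2.32-fold), a prolyl isomerase. SERPINH1, the collagen chaperone, had 0.65 and was not called. The largest adjusted p of these 6 calls was 0.000543, for PLOD2.

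Matrix receptors were called lower in 5 of 19 tested genes and higher in 1 (26.3% and 5.26%), beside 4.55% and 3.43% of all genes. GPR56 (-3.75, 13.5-fold), a receptor of collagen III, and CD44 (-3.73, 13.3-fold), a receptor of hyaluronan, fell most. The integrin chains ITGA6 (-1.98, 3.96-fold), ITGB1 (-1.85, 3.61-fold) and ITGA3 (-1.50, 2.83-fold), which pair as laminin receptors, were lower as well. DDR2 (1.02, 2.03-fold), a receptor of fibrillar collagen, was higher. The largest adjusted p of these 6 calls was 0.000819, for DDR2. ITGA5, the fibronectin receptor chain, had 0.21 and ITGAV 0.76, and neither was called.

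Of the basement membrane partners tested, 3 of 11 were called lower and 2 higher (27.3% and 18.2%), beside 4.55% and 3.43% of all genes. EFEMP1 (-2.60, 6.07-fold), NTN4 (-2.49, 5.62-fold), which binds laminin γ chains, and PXDN (-1.19, 2.29-fold), the peroxidase that cross-links type IV collagen, were lower. SPARC (1.78, 3.43-fold), a collagen-binding protein, and FBLN1 (1.52, 2.87-fold) were higher, with adjusted p of 6.83e-05 and 0.000239.

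Markers of other cell types were read beside these groups, and their part in the results was not tested. Of 7 fibroblast genes, 2 were well above background on every array of Ctrl, 3 in sh-S1 and 4 in sh-S2, with a summed level of 1482 to 2327 in the Ctrl channels, 3825 to 4187 in sh-S1 and 3223 to 4380 in sh-S2. THY1 was 2.74-fold higher (adjusted p = 9.26e-05) and POSTN 2.19-fold higher (0.00435), while DCN had a mean of 0.07 (0.644) and LUM and FAP were too dim to test. The 4 smooth muscle genes summed to 1162 to 3354 in Ctrl, 22042 to 23116 in sh-S1 and 8977 to 9052 in sh-S2, from ACTA2 and CNN1, with DES and MYH11 well above background on no array of either labelled RNA. The 9 genes of ovarian carcinoma lines summed to 57024 to 82057 in Ctrl, 9718 to 12408 in sh-S1 and 8292 to 12336 in sh-S2. This fall came from KRT18, PAX8, KRT19, KRT8 and ERBB2, all called lower. WT1 (-0.02) and MUC16 (0.06) were not called, and CDH1 and EPCAM were too dim to test. Endothelial genes summed to 670 to 845 in Ctrl and to 739 to 1008 in the clones, and leukocyte genes to 822 to 1018 and 867 to 1039.

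In A2780s, most matrix genes, like most of all genes measured, were not called between the pCMV-Hic-5 clone and its Ctrl. A single clone gives no test, so a gene was called when the mean of its 2 arrays reached 1.5-fold with the same sign on both. Of 48 members measured, 1 was called higher and 2 lower (2.08% and 4.17%), against 3.43% higher and 1.42% lower of all 22017 genes measured. LAMB1 had log2 ratios of 0.54 (Cy5) and 0.90 (Cy3), a mean of 0.72 and 1.65-fold. It was not called with normexp fitted on all spots (0.53) or on the Cy5 array alone (0.54). COL17A1 had -1.50 and -0.88, a mean of -1.19 and 2.29-fold lower, and its dimmer probe did not pass the filter there. COL27A1, a fibrillar collagen of cartilage, had -1.08 and -0.29, a mean of -0.69 and 1.61-fold lower, and its arrays differed by more than that mean. Another COL27A1 probe, well above background in both A2780s RNAs, gave -0.01 and 0.06, and the average over probes (-0.33) was not called. COL9A3, at 0.67 and 0.35, lay just inside the uncalled range with 0.51, and the 45 uncalled members ran from -0.33 to 0.51. The median over the members was -0.04 and over all genes -0.01.

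**Figure D4:**
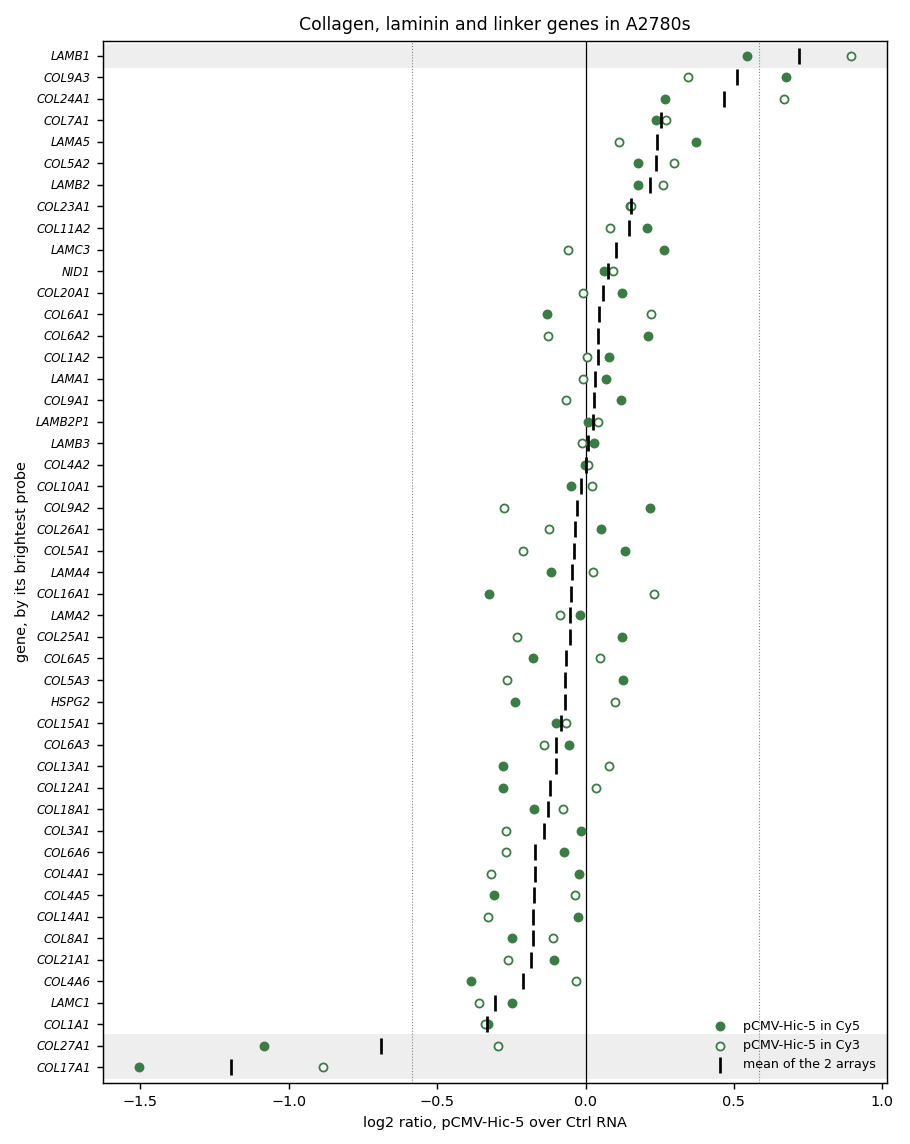
Log2 ratio of pCMV-Hic-5 over Ctrl (x axis) for the 48 members measured in A2780s (y axis, brightest probe), 1 point per array and a bar at their mean. Dotted lines are the 1.5-fold limits and grey bands the 3 called members, LAMB1, COL27A1 and COL17A1.

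The members called in SKOV3 were read in A2780s side by side. LAMB1 was lower in the labelled SKOV3 clones (-3.33) and higher in pCMV-Hic-5 (0.72). COL4A2 had 0.00 and 0.01 on the A2780s arrays, COL4A1 -0.02 and -0.32, COL3A1 -0.02 and -0.27, and COL5A2 0.18 and 0.30. Of the 14 members called in SKOV3, 12 were measured in A2780s, and their mean ratios there ran from -0.18 to 0.72. FN1 was well above background in neither A2780s RNA on either array, so no ratio is given, and LAMA3 was so on 1 of 2 arrays in each. LAMC1 had -0.25 and -0.36 and NID1 0.06 and 0.09. HSPG2 had -0.24 and 0.10. NID2 was flagged on 1 A2780s array, and the other gave -0.39.

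The members lay as all called genes did between the control RNAs of the lines. The 11 members called lower had a lower log2 level in A2780s Ctrl than in SKOV3 Ctrl, as did 99.8% of all genes called lower, for example COL4A2 at 8.17 against 14.7 to 15.3 and LAMB3 at 7.10 against 14.4. COL3A1 was at 13.1 in A2780s Ctrl against 9.41 in SKOV3 Ctrl, with 13.5 in sh-S1 and 12.6 in sh-S2, and COL5A2 at 11.3 against 8.20, with 10.1 to 11.3 in sh-S1 and 9.54 to 11.4 in sh-S2. LAMA1 was at 10.4 against 7.28, with 8.71 in sh-S1 and 8.43 in sh-S2. Each line was hybridized on a slide of its own, so the line and the slide cannot be told apart in these levels.

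Of the related lists in A2780s, 4 of 33 collagen assembly genes were called higher and 1 lower (12.1% and 3.03%). Of all genes measured there, 3.43% were called higher and 1.42% lower. SEC31A (0.79), MIA3 (0.79) and CTAGE5 (0.77), which serve the export of large cargo such as procollagen from the endoplasmic reticulum, were higher on both arrays, as was PCOLCE (0.63). P4HA2 (-0.70), a prolyl 4-hydroxylase chain, was lower. Of 16 matrix receptors measured, DDR2 (0.75) was called higher and DDR1 (-0.71), a collagen receptor of epithelia, lower. None of 10 basement membrane partners was called.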

How the data were processed

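The authors deposited spot intensities of each scanned array as Agilent Feature Extraction wrote them (version 10.7.3.1 in the file headers, 8.5.1.1 in the submitters' processing notes), with mean intensity and median local background in both dyes, and log10 ratios of Cy5 over Cy3 from the software's own processed signals. The deposited series table holds the same log10 ratios, rounded and not turned on dye-swapped arrays. Background was corrected here with normexp (offset 50, limma 3.58.1, R 4.3.3). After the data were seen, background outliers were left out of its fit and 39 spots with a background above 1000 were dropped. Ratios were loess normalized within arrays, set as log2 of clone over Ctrl on every array, and averaged per clone. Flagged and control spots were left out. A probe was kept if Ctrl was well above background on each array of the line, or a clone on both of its own, which left 24958 in SKOV3. SKOV3 clone means were tested against 0 with lmFit and eBayes, and adjusted over these probes. A gene was read by its brightest probe with a value on all 6 arrays where it had one. The fits were tested on simulated data. One gene that the naming rule takes is not reported here and is in no count of members. The members and lists were chosen with earlier results of these data known. Every called member, FN1, NID1, NID2, HSPG2, COL4A1, COL4A2, LAMC1 and LAMB1 are named in full, and of each related list the 3 largest called changes each way, while others named were chosen after their values were seen. Alternatives were other background, normalization, filter, dye and probe choices. The number of arrays and the signal over background limit the precision.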

Additional observations from a re-analysis of the deposited data

Results flagged for a closer look

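For 2 of the tested members the clones lay on opposite sides of Ctrl on every SKOV3 array, a difference that was not tested, since each clone is 1 replicate. NID2 was higher in the RNA labelled sh-S1 and lower in the RNA labelled sh-S2, and sh-S2 minus sh-S1 was -1.63 on the log2 scale. LAMA4, the α4 laminin chain, had ratios of -0.04 and -0.06 for sh-S1 and 0.32 and 0.14 for sh-S2, a difference of 0.28, with every ratio small.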

How the results depend on the processing

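In SKOV3 the 11 members called lower became 8 to 16 over the alternatives, all within 1.5 times, and no called member changed direction. The 3 called higher became 10 with Feature Extraction's processed signals and 6 with an offset of 10, and by fold alone 3 without sh-S1 and 6 without sh-S2. The stricter filter left 4 called members untested, which lowers the counts. With the brightest probe chosen over the arrays with a value, an alternative added after seeing the data, COL5A2 gave 2.92 (limma adjusted p = 9.57e-06). Averaged over probes, COL5A1 (-0.87) and LAMA1 (0.42) lost their calls, and COL7A1 (-0.67) did with only the arrays that carry the clone in Cy5. The members' median moved from 0.033 to 0.095 with processed signals, 0.040 with offset 10, 0.052 with median centring, 0.013 with no filter, 0.088 with the stricter filter, -0.0007 on Cy5 arrays, 0.019 on Cy3 arrays and -0.0048 averaged over probes, and was -0.016 without sh-S2 and -0.018 without sh-S1. On Cy3 arrays LAMC1 turned to 0.012, and without sh-S1 NID2 turned to -0.31. Calls gained with processed signals, offset 10, median centring or 1 dye are given with the genes. The cause of these shifts was not tested.

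In A2780s the 1 member called higher became 2 with processed signals (COL9A3 gained, 0.62) or Cy3 arrays (COL24A1 gained, 0.67) and 0 with normexp fitted on all spots or 1.5-fold asked of each array. On Cy5 arrays the count stayed at 1, but LAMB1 lost its call (0.54) and COL9A3 gained one (0.67). The 2 called lower became 1, without COL27A1, on Cy3 arrays, averaged over probes, or with 1.5-fold on each array. The median went from -0.042 to -0.062 (processed signals), 0.0096 (all spots), -0.011 (median centring), -0.016 (Cy5) and -0.023 (Cy3). Uncalled values near 0 changed sign: COL4A2 to -0.041 (processed signals), -0.0005 (offset 10) and -0.0018 (Cy5), COL5A1 to 0.024 (all spots), 0.026 (median centring) and 0.13 (Cy5), COL18A1 to 0.034 (averaged probes), and on Cy3 arrays COL12A1 to 0.036, LAMA1 to -0.0083, LAMB3 to -0.012 and HSPG2 to 0.10. No paired analysis was possible because the labels number no replicates: each ratio already sets a clone against Ctrl on 1 array, and arrays of different clones share only the dye orientation, which cancels in each clone's mean.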
